A study of Mus musculus with 59 samples.

Results

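Spinal cord of mice carrying the mutant human SOD1 transgene labelled SOD1_G93A was compared between 17 and 12 weeks of age, to ask which responses to the mutation grew, levelled off or receded after 12 weeks. The compared set was chosen by label alone: 4 mutant libraries, 1 female and 1 male at 17 weeks and 1 female and 1 male at 12 weeks, of 59 libraries in the series. The change between the same ages in 4 wild-type (WT) libraries, again 1 female and 1 male at each age, was the reference. In both genotypes age cannot be told apart from whatever else the libraries of 17 weeks share, since the labels give no batch or date. RNA had been sequenced from whole cord, so in these libraries fewer cells of a type and less RNA per cell cannot be told apart. The promoter of the transgene, its copy number and the strain are not given in the sources used here, nor is it stated whether each library came from a single animal. The p-values therefore measure only the spread between these samples, with the 16 cord libraries of 4, 8, 12 and 17 weeks sharing 1 estimate of it.

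Mutations of SOD1, an enzyme that removes superoxide, cause an inherited form of amyotrophic lateral sclerosis, a paralysing disease in which motor neurons die. Mice with the mutant human gene lose spinal motor neurons, and glia around those neurons react. Microglia, the resident macrophages of the cord, take on a state that depends on the receptor Trem2, with genes of phagocytosis, lipid handling and the lysosome. Astrocytes become reactive, and cells exposed to interferons switch on antiviral genes.

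Interferon-stimulated genes and lysosomal genes carry known, different regulatory elements in their promoters, and the 2 groups are set side by side in the results that follow. Promoters of 6 of these genes are therefore shown, as the 250 bases before the gene start in RefSeq (GRCm38.p6), 5′ to 3′ on the strand of the gene. Capitals in the first group mark 2 copies of GAAA with any 2 bases between them, the core of the interferon-stimulated response element, read on either strand, in genes raised at 12 weeks whose change after it was not called. Isg15, a ubiquitin-like antiviral protein, is at chr4:156200819-156201068, minus strand. Ifit1, which binds viral RNA, is at chr19:34640639-34640888, plus strand. Bst2, which tethers budding virus to the cell, is at chr8:71537473-71537722, minus strand. Cxcl10, a chemokine that attracts T cells, is at chr5:92348890-92349139, minus strand.
Isg15: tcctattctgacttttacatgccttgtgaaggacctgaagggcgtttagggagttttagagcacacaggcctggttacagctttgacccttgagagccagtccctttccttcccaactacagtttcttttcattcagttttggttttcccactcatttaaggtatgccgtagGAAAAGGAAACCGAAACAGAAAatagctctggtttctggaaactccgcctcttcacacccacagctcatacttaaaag
Ifit1: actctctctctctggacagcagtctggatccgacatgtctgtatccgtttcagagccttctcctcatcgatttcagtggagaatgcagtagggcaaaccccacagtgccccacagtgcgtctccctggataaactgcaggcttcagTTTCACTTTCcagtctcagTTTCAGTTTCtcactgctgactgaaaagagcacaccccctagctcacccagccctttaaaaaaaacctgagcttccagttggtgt
Bst2: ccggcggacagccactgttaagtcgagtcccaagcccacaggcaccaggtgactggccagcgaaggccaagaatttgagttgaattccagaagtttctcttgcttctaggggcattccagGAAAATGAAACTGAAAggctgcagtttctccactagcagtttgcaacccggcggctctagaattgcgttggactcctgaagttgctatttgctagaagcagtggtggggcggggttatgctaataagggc
Cxcl10: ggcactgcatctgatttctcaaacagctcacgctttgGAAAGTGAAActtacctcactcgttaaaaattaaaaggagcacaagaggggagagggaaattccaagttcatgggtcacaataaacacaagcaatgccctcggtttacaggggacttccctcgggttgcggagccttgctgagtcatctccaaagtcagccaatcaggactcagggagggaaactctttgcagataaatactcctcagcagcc

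Capitals in the second group mark TCACGTG, the core of the element read by Tfeb and related factors in lysosomal genes, on either strand, so that overlapping matches run together. Ctsd, the lysosomal protease cathepsin D, is at chr7:142387828-142388077, minus strand. Glb1, the lysosomal beta-galactosidase, is at chr9:114400828-114401077, plus strand. Both genes rose in mutant cord after 12 weeks, though not every lysosomal gene with the element did.
Ctsd: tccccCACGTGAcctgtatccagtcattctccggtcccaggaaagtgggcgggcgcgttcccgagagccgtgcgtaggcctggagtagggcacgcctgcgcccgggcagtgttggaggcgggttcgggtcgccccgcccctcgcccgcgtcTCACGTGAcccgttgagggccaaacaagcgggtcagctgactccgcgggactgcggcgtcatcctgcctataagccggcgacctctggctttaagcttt
Glb1: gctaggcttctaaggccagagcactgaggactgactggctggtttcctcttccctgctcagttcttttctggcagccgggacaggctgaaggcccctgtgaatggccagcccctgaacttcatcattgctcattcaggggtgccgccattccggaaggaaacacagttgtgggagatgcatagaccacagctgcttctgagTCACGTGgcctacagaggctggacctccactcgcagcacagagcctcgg

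In a window of 300 bases, 250 before to 50 after the start, the GAAA pair was present in 10 of 16 interferon-list genes with a promoter in the RefSeq table (62.5%; 20 genes of the list were tested). It was present in 2 of 20 lysosomal genes (10%) and in 1131 of all 32851 promoters (3.44%). The list shares count genes with a match in any promoter, while the share of all promoters counts single promoter entries. TCACGTG was present in 5 of 20 lysosomal genes (25%; 27 were tested), in 0 of 16 interferon genes and in 1237 of all 32851 promoters (3.77%). The 5 lysosomal genes with TCACGTG were Ctsa, Ctsd, Glb1, Lamp1 and Lgmn, of which Lamp1 did not pass in mutant cord. Ctsz, Ctss, Grn, Gusb and Man2b1, the lysosomal genes called in the difference between mutant and WT change, were not among them. A match describes these letters in this window only, and its relation to the changes was not tested.

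The 17-week libraries of both genotypes stood apart from all younger ones in the share of reads on genes, and the mutant female of 17 weeks had the fewest reads. Reads and library totals were recovered from the deposited values. Reads on genes were 9.71 M (female) and 32.7 M (male) in 17-week mutants and 31.0 M and 37.1 M in 12-week mutants, and 21.6 M and 32.4 M in 17-week WT and 31.0 M and 33.6 M in 12-week WT. The share of the library total on genes was 46.8% and 66.1% in 17-week mutants and 51.3% and 67.5% in 17-week WT, against 75.0% to 80.8% in the 12 libraries of 4 to 12 weeks. Values were therefore rescaled by median-of-ratios factors, which were 0.65 to 0.96 at 17 weeks and 1.07 to 1.12 at 12 weeks. Without rescaling the median of all genes moved by -0.38 in mutant and -0.32 in WT cord on the log2 scale, so a rise or fall below is relative to the bulk of genes. Mouse Sod1 was listed at 73.8 and 93.2 in 17-week mutants and 64.1 and 113 in 12-week mutants, and at 102 and 80.0 in 17-week WT and 93.7 and 103 in 12-week WT, which does not check the human transgene. Levels throughout are reads per gene length and library total after rescaling, female first and male second in each pair, and changes are log2 of level plus 1.

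Mutant cord changed between 12 and 17 weeks in 781 of 14660 genes tested (limma, Benjamini-Hochberg adjusted p under 0.05). Of these, 583 were higher at 17 weeks (3.98% of the genes tested) and 198 were lower (1.35%), and 665 were protein coding. Without rescaling 4174 passed, of which 206 (4.94%) were higher, against 74.6% of the 781. In WT cord no gene passed, with 1263 at an unadjusted p under 0.05 (628 higher, 635 lower) and a smallest adjusted p of 0.105, and limma-voom on recovered reads also called 0. Without the 17-week WT male, however, WT cord called 123 genes (39 higher, 84 lower). The 583 genes that rose in mutant cord had a median change of 0.73 in mutant and 0.08 in WT, and 386 of them were positive in WT against 7034 of all 14660 genes. The 198 that fell had medians of -0.48 in mutant and -0.18 in WT and 171 of them were negative in WT. All 781 had both 17-week libraries on the same side of both 12-week libraries, as had 7158 of all 14660 genes.

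A direct test of the mutant change minus the WT change called 29 genes, 28 positive (0.191%) and 1 negative (0.00682%), with 1525 genes at an unadjusted p under 0.05 (1050 positive, 475 negative). The median standard error was 0.13 for a change within 1 genotype and 0.18 for this difference, and the smallest difference called was 0.68 (Sgpl1, a lyase of sphingosine phosphate). The counts leaned on single libraries. Without the 12-week mutant female 116 genes passed in mutant cord and 4 in the difference, without the 17-week mutant female 130 and 1, and without the 17-week mutant male 261 and 5. Without the 12-week mutant male the difference called 156 genes. The difference called 0 genes without the WT female of either age, 1 without the WT male of either age, and 0 without both 17-week females, where mutant cord called 176. The 1 gene left without the 17-week WT male was Itgam, and the 1 left without the 12-week WT male was not among the 29.

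At 12 weeks 415 genes were already higher in mutant than in WT cord (2.83%) and 42 were lower (0.286%), and at 17 weeks 1338 were higher (9.13%) and 446 lower (3.04%). The 457 calls at 12 weeks were 195 without the 12-week mutant female, 135 without the 12-week WT female and 150 without the 12-week WT male, and without the 12-week mutant male they were 342 higher and 305 lower. The 1784 calls at 17 weeks were 841 without the 17-week mutant female and 1107 without the 17-week mutant male. Of the 415, 381 were still called at 17 weeks, and their median effect was 1.16 at 17 weeks against 0.77 at 12 weeks. The effect grew in 21 of them by the test of the difference. It held in 249, meaning that the difference was not called and its 95% interval lay within 1 log2 unit either way. Held does not mean unchanged: of the 249, 85 rose in mutant cord, 196 had a positive difference, and the median effect was 0.88 at 17 weeks against 0.64 at 12 weeks, which is less than the margin of 1. For the other 145 the interval was too wide to place them, and none receded. The same 12-week mutant libraries enter both the choice of the 415 and the difference, so a chance high value at 12 weeks works toward receding. The difference was positive in 338 of the 415, against 7629 of 14660 genes. The count that grew was 1 without the 17-week mutant female, 2 without the 12-week mutant female, 3 without the 17-week mutant male, 30 without the 12-week mutant male and 0 or 1 without each WT library. The count that held was 50 to 89 without the WT female or WT male of 12 weeks or the 12-week mutant female, and 187 to 272 without the others. Without the 12-week mutant male 7 genes receded.

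**Figure D1:**
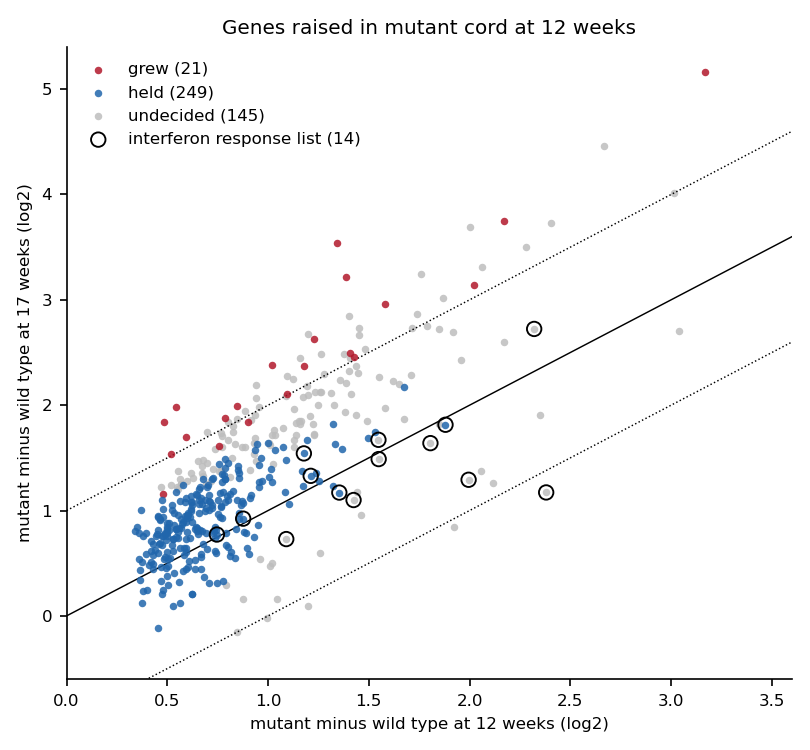
Each point is 1 of the 415 genes higher in mutant than WT cord at 12 weeks, with the mutant minus WT effect at 12 weeks on the x axis and at 17 weeks on the y axis (log2). The solid line marks equal effects and the dotted lines 1 log2 unit either way. Red points are the 21 genes that grew, blue the 249 that held, grey the 145 undecided, and circles the 14 interferon genes, which lie on both sides of the solid line while most points lie above it.

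Genes of the Trem2-dependent microglial state rose broadly after 12 weeks in mutant cord. Of 24 genes tested 19 rose and 0 fell in mutant cord, with a median change of 1.02 in mutant and 0.06 in WT. Cst7 (chr2:150396151-150404681 in mm9), which encodes the lysosomal protease inhibitor cystatin F, stood at 34.9 and 40.4 in 17-week mutants, 8.51 and 8.12 in 12-week mutants, 0.133 and 0.0219 in 17-week WT and 0.0715 and 0 in 12-week WT. Both 17-week mutants were far above both 12-week mutants, and all WT libraries were near 0. The mutant change was 2.05 (SE 0.20, limma adjusted p = 0.000952) and exceeded the WT change by 1.99 (95% interval 1.36 to 2.62, adjusted p = 0.0335). In the course by age Cst7 was at 0.155 and 0.353 in mutants of 4 weeks and 0.847 and 0.456 in those of 8 weeks, so most of its rise came after 8 weeks.

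Lyz2, a lysozyme of macrophages, was at 143 and 125 in 17-week mutants and 34.6 and 25.2 in 12-week mutants, against 5.92 and 4.46 in 17-week WT and 5.55 and 2.54 in 12-week WT. Its mutant change of 2.14 passed (limma adjusted p = 0.00228), while the difference from WT of 1.79 did not (adjusted p = 0.0843). Cd52, a small surface glycoprotein of leukocytes, was at 57.1 and 46.8 in 17-week mutants and 10.6 and 11.8 in 12-week mutants, against 5 and 1.62 in 17-week WT and 1.47 and 1.15 in 12-week WT (change 2.11). Trem2, the receptor itself, was at 9.98 and 9.02 in 17-week mutants and 3.58 and 5.03 in 12-week mutants, and near 1 in every WT library of both ages. It rose by 1.00, and its signalling partner Tyrobp by 1.36. Cd9, a membrane organiser, was at 132 and 129.6 in 17-week mutants and 49.8 and 60.6 in 12-week mutants, and was the other member called in the difference (1.15, adjusted p = 0.0215). Both mutant libraries of 17 weeks lay above both of 12 weeks for each of these genes.

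Apoe, Spp1, Itgax, Igf1, Ctsl and Csf1 rose in mutant cord and were called against WT at 17 weeks but not at 12, though none of these 6 passed in the difference. Apoe, the lipid carrier of glia, was at 2141 and 2268 in 17-week mutants and 655 and 1134 in 12-week mutants, against 817 and 585 in 17-week WT and 542 and 622 in 12-week WT. The 12-week mutant female was within the WT range and the male was above it. The mutant change was 1.35 (limma adjusted p = 0.0119) and the difference from WT 1.10 (95% interval 0.36 to 1.85, adjusted p = 0.258), so the later timing of Apoe itself did not pass. Spp1, or osteopontin, a secreted phosphoprotein of activated microglia, was at 165 and 165 in 17-week mutants and 88.8 and 69.8 in 12-week mutants, against 50.8 and 53.1 in 17-week WT and 85.9 and 53 in 12-week WT. Gpnmb, Lpl, Fabp5, Timp2 and Ank were the 5 members that did not pass in mutant cord, with Gpnmb at 8.71 and 2.63 in 17-week mutants and 3.41 and 2.28 in 12-week mutants. The count of 19 was 6 without the 12-week mutant female, 8 without the 17-week mutant female, 13 without the 17-week mutant male, 11 without both 17-week females and 12 without rescaling, while the median stayed at 0.97 to 1.09 in the first 4 of these and was 0.57 without rescaling.

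Lysosomal genes, many of which encode enzymes that digest engulfed material, rose beside them. Of 27 tested 18 rose and 1 fell, with a median of 0.61 in mutant and -0.02 in WT, and 5 passed in the difference: Ctsz, Ctss, Grn, Gusb and Man2b1. Grn, the precursor of the lysosomal granulins, was at 58.6 and 53.8 in 17-week mutants and 28.1 and 24.1 in 12-week mutants, against 9.11 and 9.16 in 17-week WT and 8.82 and 9.55 in 12-week WT. Its WT levels were level with age and the mutant pairs were apart, for a difference of 1.09 (95% interval 0.81 to 1.36, limma adjusted p = 0.0215). Ctss, a protease of microglia, was at 289.7 and 234 in 17-week mutants and 126 and 116 in 12-week mutants, and Ctsd, shown with its promoter, at 781 and 707 in 17-week mutants and 421 and 309.8 in 12-week mutants. Among members that did not pass, Psap, the precursor of the saposins, had a change of 0.02, and the membrane proteins Lamp1 and Lamp2 had 0.14 and 0.18. The member that fell was Atp6v1b2, a subunit of the proton pump also used by synaptic vesicles (-0.39, adjusted p = 0.018). The 18 rises were 9 without the 12-week mutant female, 10 without the 17-week mutant female, 12 without the 17-week mutant male, 11 without both 17-week females and 8 without rescaling.

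Genes of complement, the cascade that tags material for phagocytes, rose in part. C1ra, C1s, C2, Cfb and C5ar1 did not reach the level for testing. Of 13 tested 8 rose and 0 fell, with medians of 0.97 in mutant and -0.05 in WT. C1qa (chr4:136451832-136454719 in mm9), a chain of the first component, was at 182 and 180.4 in 17-week mutants and 62 and 81.8 in 12-week mutants, against 23.3 and 21.6 in 17-week WT and 24.3 and 22.1 in 12-week WT. The difference from WT was 1.38 (95% interval 0.88 to 1.89, limma adjusted p = 0.0474), and C1qc and Itgam, a chain of complement receptor 3, passed as well (1.12 and 1.36). C3, the central component, was at 146 and 129 in 17-week mutants and 30.5 and 45.2 in 12-week mutants, against 56.6 and 31.1 in 17-week WT and 27.4 and 40.3 in 12-week WT. Its 12-week mutants lay within the WT range, both 17-week mutants lay above every other library, and the mutant change was 1.86 (adjusted p = 0.0158). The inhibitors Cd55 and Cr1l had changes of -0.13 and 0.36 that did not pass. The 8 rises were 4 without the 12-week mutant female, 4 without the 17-week mutant female and 4 without both 17-week females.

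Of 18 genes of phagocytosis and Fc receptors 10 rose (medians 0.65 in mutant and 0.08 in WT), among them the Fc receptor gamma chain Fcer1g (1.40) and the scavenger receptor Msr1 (1.06). Of 20 cytokine and chemokine receptors 11 rose, with Csf2ra, a receptor for GM-CSF, at 7.17 and 8.81 in 17-week mutants and 2.57 and 3.23 in 12-week mutants, against 2.29 and 3.02 in 17-week WT and 1.96 and 2.79 in 12-week WT. The 12-week mutant female lay within the WT range, the 12-week male just above it and both 17-week mutants well above it. In the difference limma called 0 members of either list, with 12 of 18 and 13 of 20 higher at an unadjusted p under 0.05, and limma-voom called 0 and 2. The counts were 3 and 1 without the 12-week mutant female, 2 and 2 without the 17-week mutant female, 7 and 6 without the 17-week mutant male, 3 and 1 without both 17-week females, and 4 and 2 without rescaling.

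Markers of microglial identity shared the rise in part only. Of 12 tested 5 rose and 0 fell (medians 0.48 in mutant and -0.12 in WT), and the summed level of the list was 403.5 and 374.5 in 17-week mutants, 242.4 and 255.6 in 12-week mutants, 111.1 and 122.7 in 17-week WT and 138.0 and 123.9 in 12-week WT. Fcrls, an Fc receptor-like protein of microglia, was at 30.5 and 28.1 in 17-week mutants and 8.98 and 1.92 in 12-week mutants, against 0.885 and 0.259 in 17-week WT and 2.33 and 0.887 in 12-week WT. The 12-week mutant male was within the WT range and the female above it, and the change of 2.49 (limma adjusted p = 0.00701) lost its call without the 17-week mutant male (adjusted p 0.0559) and without both 17-week females (0.0546). P2ry12, the ADP receptor that guides resting processes, was at 15.7 and 13.2 in 17-week mutants and 13.3 and 15.9 in 12-week mutants, against 8.58 and 14 in 17-week WT and 11.9 and 12.2 in 12-week WT, with overlap between the 2 ages in mutants. Tmem119, a surface marker of resident microglia, had a mutant change of 0.26 that did not pass (adjusted p = 0.43), and its higher level than WT at 12 weeks (0.80) held. The 5 rises were 1 without the 12-week mutant female, 2 without the 17-week mutant female, 3 without the 17-week mutant male, 0 without both 17-week females, and 1 with 1 fall without rescaling.

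Of 18 genes of cell division 9 reached the level for testing, and 5 of these rose: Mki67, Rrm2, Mcm3, Mcm5 and Mcm6 (list medians 0.46 in mutant and 0.01 in WT), and 0 of the 9 were called against WT at 12 weeks and 5 at 17. The summed level of the 9 tested was 32.8 and 35.9 in 17-week mutants and 31.6 and 23.8 in 12-week mutants, against 19.2 and 21.7 in 17-week WT and 16.5 and 15.5 in 12-week WT. Mki67, a nuclear protein of dividing cells, was at 1.33 and 1.25 in 17-week mutants and 0.495 and 0.451 in 12-week mutants, against 0.0683 and 0.163 in 17-week WT and 0.098 and 0.116 in 12-week WT, with no overlap between the 17-week mutants and the rest. The change of Mki67 was 0.64 (limma adjusted p = 0.0151). The count of 5 was 0 without the 12-week mutant female, 0 of 6 without the 17-week mutant female, 2 of 6 without the 17-week mutant male, 3 without the 12-week mutant male, and 0 of 7 with 1 fall without rescaling.

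In the lists for other immune cells most genes did not reach the level for testing. There was 1 gene tested in each of the T and NK cell, B and plasma cell, monocyte and neutrophil, and border macrophage lists. The gene tested from the T and NK cell list was at 3.1 and 3.3 in 17-week mutants and 1.1 and 3.4 in 12-week mutants, against 2.1 and 1.9 in 17-week WT and 2.0 and 2.0 in 12-week WT. That from the monocyte and neutrophil list was at 23.7 and 26.6 in 17-week mutants and 17.3 and 11.1 in 12-week mutants, against 22.98 and 27.2 in 17-week WT and 16.8 and 19.3 in 12-week WT, so it was as high in WT of 17 weeks. The other members of these lists do not enter these values. The part of these cells in the rises above was not tested.

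**Figure D2:**
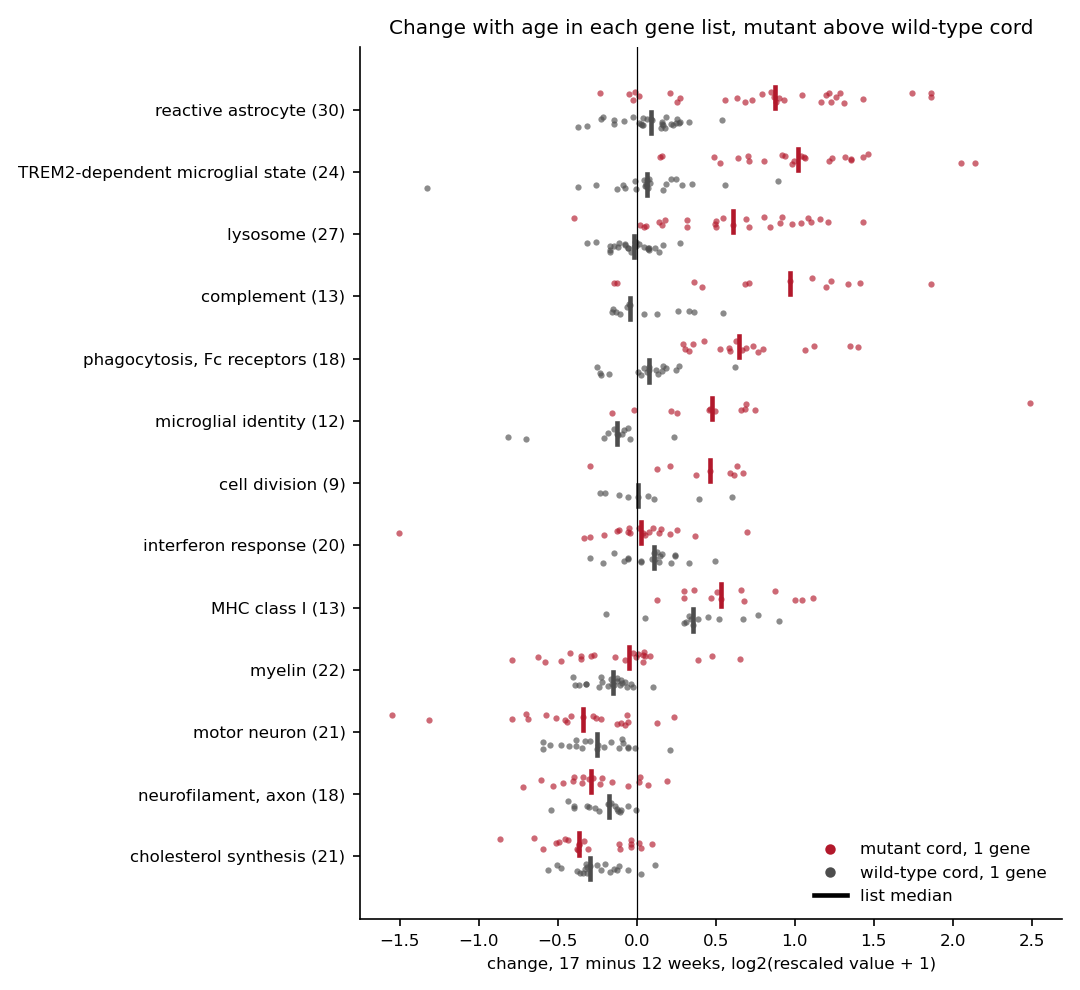
Each point is 1 gene, placed by its change from 12 to 17 weeks (17 minus 12 weeks, log2 of rescaled value plus 1), with mutant cord in red above WT cord in grey for each list and the number of genes tested in parentheses. Bars mark list medians. The microglial, lysosomal, complement and astrocytic lists lie to the right in mutant cord and around 0 in WT, while the interferon list is centred near 0 in both and the motor neuron, axon and cholesterol lists lie to the left in both.

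Reactive astrocyte genes rose to a like extent. Of 30 tested 21 rose and 0 fell (medians 0.87 in mutant and 0.09 in WT), and Serpina3n, Tgm1 and Cebpd passed in the difference. Serpina3n (chr12:105644939-105652540 in mm9), a secreted protease inhibitor, was at 462 and 379.6 in 17-week mutants and 119.9 and 129 in 12-week mutants, against 30.8 and 29.5 in 17-week WT and 25.2 and 28.6 in 12-week WT. The 3 levels were separate, with WT of both ages together at the bottom. The mutant change was 1.74 (SE 0.14) and the difference from WT 1.58 (95% interval 1.14 to 2.02, limma adjusted p = 0.0215). Its course in mutants was 20.4 and 18.1 at 4 weeks and 32.4 and 33.8 at 8 weeks, so it was already above the 21.7 and 24.4 of 8-week WT. Gfap, the intermediate filament of astrocytes, was at 1653 and 1545 in 17-week mutants and 827 and 882 in 12-week mutants, against 446 and 355 in 17-week WT and 353 and 327 in 12-week WT, and rose by 0.90 with a difference of 0.68 that did not pass (95% interval 0.32 to 1.03).

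C3, Emp1, Lcn2, Nes, S100a10, Srgn and Tgm1 are the 7 members that rose and were called against WT at 17 weeks but not at 12. Nes, an intermediate filament of progenitors and reactive astrocytes, was at 9.67 and 8.22 in 17-week mutants and 2.1 and 4.53 in 12-week mutants, against 2.47 and 1.53 in 17-week WT and 2.27 and 1.56 in 12-week WT. S100a10, a partner of annexin, was at 47.5 and 43.8 in 17-week mutants and 20.2 and 29.8 in 12-week mutants, against 17.2 and 18.2 in 17-week WT and 25.4 and 21.2 in 12-week WT, so that the 12-week mutant female was within the WT range and the male above it. The 21 rises were 10 without the 12-week mutant female, 6 of 29 with 1 fall without the 17-week mutant female, 12 of 29 without the 17-week mutant male, 7 of 29 with 1 fall without both 17-week females, and 13 of 29 without rescaling.

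Genes that keep up the normal work of astrocytes did not follow. Of 19 tested 2 rose and 1 fell, with a median of -0.09, and 0 passed without the 17-week mutant female while 11 fell without rescaling. The water channel Aqp4 was at 317 and 265 in 17-week mutants and 191 and 145 in 12-week mutants, against 121 and 118 in 17-week WT and 123 and 115 in 12-week WT, and rose by 0.80 (limma adjusted p = 0.00993). The GABA transporter Slc6a11 fell by 0.41 (adjusted p = 0.0447). The glutamate transporter Slc1a2 was at 229 and 239.9 in 17-week mutants and 248 and 261 in 12-week mutants, against 159.9 and 199 in 17-week WT and 207 and 196 in 12-week WT, with a change of -0.12 (95% interval -0.37 to 0.13).

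The interferon genes were raised in mutant cord at both ages, with a median change near 0 between them. At 12 weeks 14 of 20 genes tested were higher in mutant cord than in WT (median 1.19), at 17 weeks 16 were (median 1.14), and limma called 0 of 20 in mutant cord, in WT or in the difference (median changes 0.03 in mutant and 0.11 in WT, median difference -0.06). At an unadjusted p under 0.05 there were 1 higher and 1 lower in mutant cord and 0 in WT and in the difference, and limma-voom called 1 higher and 1 lower in mutant cord and 0 in the others. Ifit3 (chr19:34658021-34663222 in mm9), a partner of Ifit1, was at 13 and 5.62 in 17-week mutants and 7.52 and 8.82 in 12-week mutants, against 2.05 and 2.14 in 17-week WT and 1.64 and 1.59 in 12-week WT. All 4 mutant libraries were above all WT libraries, the 17-week female was the highest and the 17-week male the lowest of the mutants. The difference from WT was -0.17 with a 95% interval of -1.05 to 0.72, which leaves a moderate rise or fall undecided.

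Irf7, the factor that amplifies interferon production, was at 2.92 and 1.47 in 17-week mutants and 2.08 and 2.39 in 12-week mutants, against 0.444 and 0.321 in 17-week WT and 0.272 and 0.254 in 12-week WT, and held with a difference of -0.18 (95% interval -0.74 to 0.37). Bst2 was at 13.2 and 5.98 in 17-week mutants and 8.13 and 11.9 in 12-week mutants and held as well (-0.95 to 0.81). In the course by age Irf7 was at 0.202 and 0.168 in 4-week mutants and 0.524 and 0.535 in 8-week mutants, against 0.291 and 0.342 in 4-week WT and 0.147 and 0.216 in 8-week WT, so its rise over WT was visible at 8 weeks, larger at 12 and of a like size at 17. Of the 14 genes raised at 12 weeks 6 held and 8 could not be placed.

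**Figure D3:**
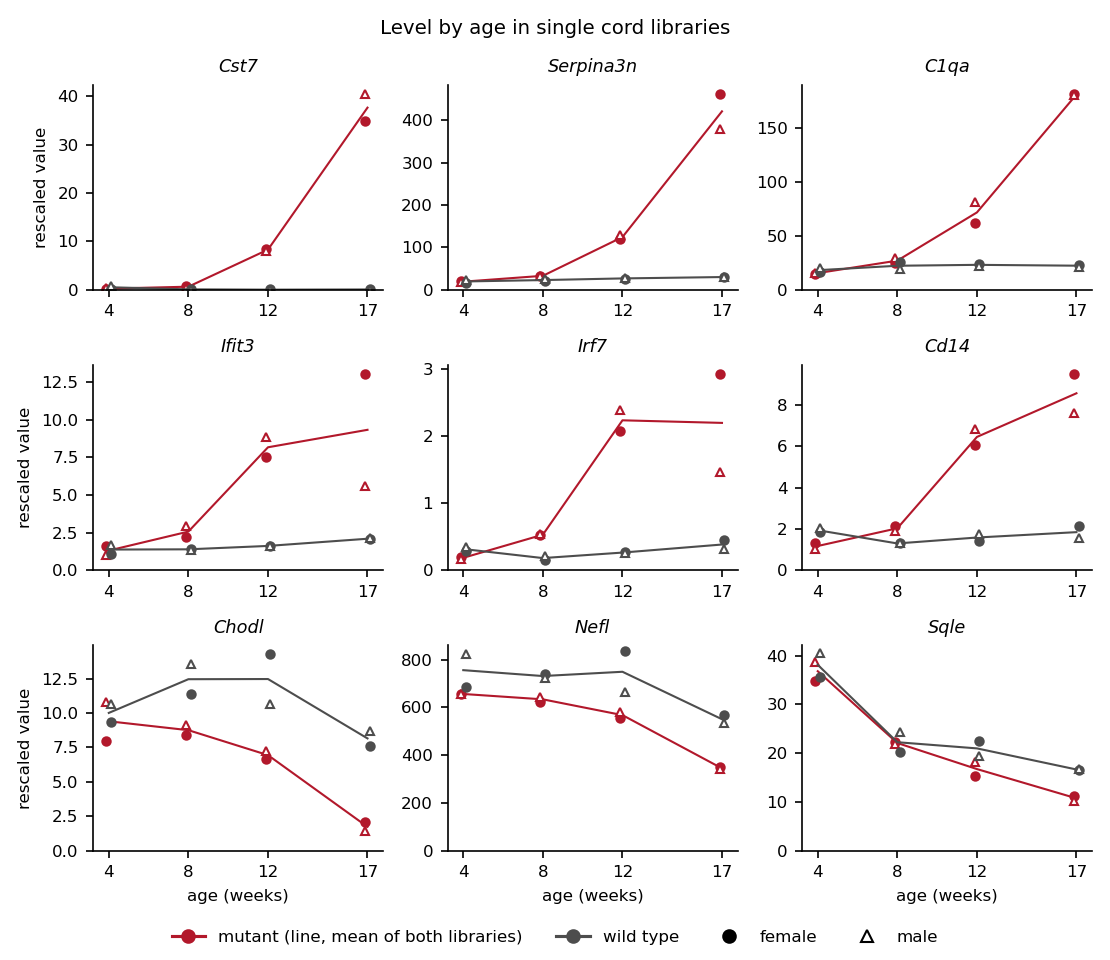
Levels of 9 genes (rescaled value) at 4, 8, 12 and 17 weeks, with 1 point per library, mutant cord in red and WT in grey, and lines through the mean of 1 female and 1 male. Cst7, Serpina3n and C1qa climb on between 12 and 17 weeks in mutants, the mutant means of Ifit3, Irf7 and Cd14 move less after 12 weeks than between 8 and 12, and Chodl, Nefl and Sqle are lower at 17 than at 12 weeks in both genotypes.

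That median covered opposite moves in the libraries of each sex. The median interferon gene was 0.42 higher at 17 than at 12 weeks between the mutant females, with 17 of 20 genes positive, and 0.41 lower between the mutant males, with 1 of 20 positive, Ifitm3. In WT the medians were 0.12 between females and 0.10 between males. At 17 weeks the mutant female was above the mutant male for 20 of 20 interferon genes (median 0.68), against 8 of 20 at 12 weeks (median -0.04), 11 of 20 in 17-week WT and 15 of 20 in 12-week WT, and for 7602 of all 14660 genes at 17 weeks. Cxcl10 shows it plainly, at 13.3 in the 17-week female and 2.95 in the 17-week male, and at 3.85 in the 12-week female and 7.15 in the 12-week male. With 1 library per sex, age and genotype, sex and library cannot be told apart, and the 17-week mutant female is also the library with the fewest reads on genes. The median change of the list in mutant cord, 0.03 with all libraries, was 0.38 without the 17-week mutant male, -0.36 without the 17-week mutant female and -0.11 without the 12-week mutant female. The median effect of the interferon genes against WT at 17 weeks was 0.64 without the 17-week mutant female. It was 1.58 without the 17-week mutant male. Without both 17-week females 8 were called and 1 fell, and without rescaling 12 were called at 17 weeks and 4 fell in mutant cord. At 12 weeks 8 were called without the 12-week mutant female (of 19) and 8 without the male.

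MHC class I genes, which present peptides and also respond to interferon, were split in the same way at 17 weeks, with the mutant female above the male for 13 of 13 (median 0.52) against 4 of 13 at 12 weeks. Of the 13, 1 rose in mutant cord (median 0.53, and 0.35 in WT), the proteasome subunit Psmb8, at 10.3 and 7.1 in 17-week mutants and 2.97 and 4.77 in 12-week mutants. No MHC class I gene was called without the 12-week mutant female or the 17-week mutant female, and 2 were without the 12-week mutant male. B2m, the shared light chain, was at 409 and 281 in 17-week mutants and 282 and 195 in 12-week mutants, against 107 and 103 in 17-week WT and 91.9 and 74 in 12-week WT, and held (95% interval -0.55 to 0.93). Reads of the classical H2 genes can be shared between near-identical copies, so their values are uncertain. The Trem2-dependent microglial genes were higher in the 17-week mutant female for 15 of 24 and the astrocytic genes for 20 of 30.

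**Figure D4:**
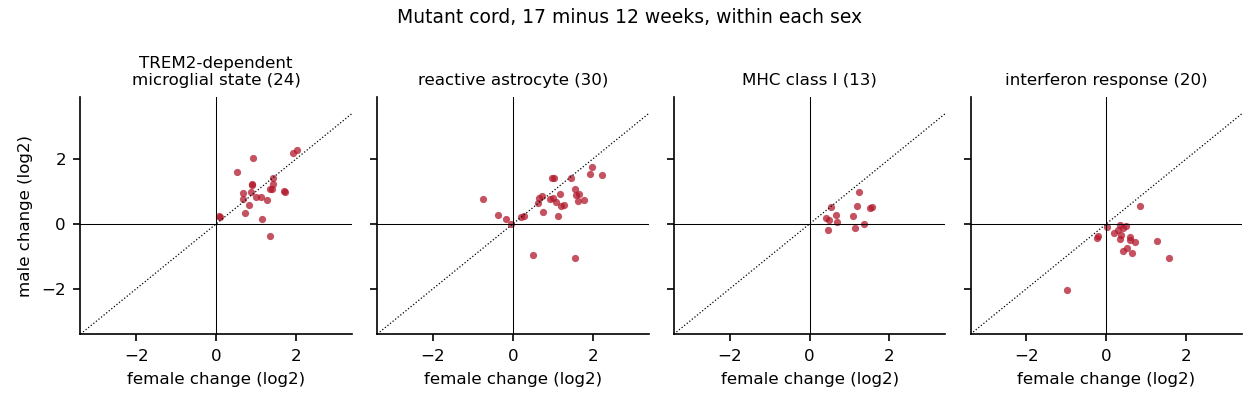
Each point is 1 gene of the list named above the panel, with the change from 12 to 17 weeks between the mutant females on the x axis and between the mutant males on the y axis (log2, 1 library per age and sex, number of genes in parentheses). Microglial and astrocytic genes lie mostly in the upper right, MHC class I genes to the right near or above 0, and interferon genes mostly in the lower right, where the female pair is positive and the male pair negative.

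Other responses that were in place at 12 weeks and held include Cd14, the co-receptor for endotoxin, at 9.52 and 7.62 in 17-week mutants and 6.07 and 6.85 in 12-week mutants, against 2.13 and 1.57 in 17-week WT and 1.42 and 1.75 in 12-week WT. The groups did not overlap between genotypes, and the difference in change was 0.22 (95% interval -0.19 to 0.64). Galnt15, a glycosyltransferase, was at 6.36 and 4.83 in 17-week mutants and 4.44 and 4.29 in 12-week mutants, against 2.18 and 1.45 in 17-week WT and 1.34 and 0.971 in 12-week WT. Its difference was -0.09 (95% interval -0.47 to 0.30). Lgals3bp, Gbp2 and A2m rose in mutant cord (by 0.64, 0.56 and 0.99), so for them held does not mean level. Their differences from WT were 0.50 (95% interval 0.006 to 0.999), 0.30 (-0.11 to 0.71) and 0.50 (0.06 to 0.93). The intervals of Lgals3bp and A2m lay above 0, though inside 1 log2 unit. Emp3 and Glipr1 did not pass in mutant cord. The chemokines were mixed. Ccl3, which attracts monocytes, was at 14.7 and 11.6 in 17-week mutants and 6.88 and 8.38 in 12-week mutants, against 1.5 and 0.874 in 17-week WT and 0.092 and 0 in 12-week WT, and did not pass in mutant cord. Of 12 chemokines and cytokines tested 5 rose: Ccl6, Ccl9, Cxcl16, Tgfb1 and Il33, and this count was 0 without the 12-week mutant female, 1 without the 17-week mutant female, 0 without the 17-week mutant male, 3 without both 17-week females and 0 without rescaling.

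Although no gene passed as receding against the WT change, 3 of the 415 fell in mutant cord itself: Ifi27l2b, Mid1 and Gm15347. Ifi27l2b, an interferon-inducible gene outside the list, was at 2.21 and 0.676 in 17-week mutants and 4.96 and 4.18 in 12-week mutants, against 0.15 and 0.446 in 17-week WT and 0.413 and 0.522 in 12-week WT, with a change of -1.26 (limma adjusted p = 0.0228) and a difference of -1.08 (95% interval -1.89 to -0.26, adjusted p = 0.332). Its adjusted p was 0.166 without the 12-week mutant female and 0.0971 without the 17-week mutant male. Its neighbour in name Ifi27l2a was at 5.44 and 1.54 in 17-week mutants and 11.6 and 9.39 in 12-week mutants, with a change of -1.50 that did not pass (adjusted p = 0.0659), and reads of these paralogs can be shared. Mid1, a ubiquitin ligase of microtubules, was at 1.85 and 1.23 in 17-week mutants and 3.04 and 3.05 in 12-week mutants, against 1.76 and 1.83 in 17-week WT and 1.27 and 1.24 in 12-week WT. Mid1 and Gm15347 were chosen after their values were seen.

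Late genes were defined as not called against WT at 12 weeks, called at 17 weeks and called in mutant cord between the 2 ages. There were 271 such risers and 94 such fallers. Of the risers 230 already had a positive effect at 12 weeks, and 7 passed in the difference: Ccn5, Gfra1, Gm9817, Iqgap1, Nrp1, Slc43a3 and Tgm1. Of the fallers 0 did. Ccn5 (chr2:163646597-163658883 in mm9), a matricellular protein, was at 5.31 and 7.12 in 17-week mutants and 0.463 and 0.965 in 12-week mutants, against 0.358 and 0.168 in 17-week WT and 1.01 and 0.133 in 12-week WT. The 17-week mutants were above all others, which overlapped, and the difference was 2.34 (95% interval 1.51 to 3.17, limma adjusted p = 0.0424).

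Tgm1, a transglutaminase, was at 4.19 and 6.36 in 17-week mutants and 0.32 and 1.2 in 12-week mutants, against 0.0545 and 0.0647 in 17-week WT and 0.0313 and 0.0355 in 12-week WT. Gfra1, the GDNF co-receptor, and Nrp1, a receptor of semaphorin and VEGF, differed in another way. Gfra1 was at 22.4 and 23.7 in 17-week mutants and 16.1 and 16.5 in 12-week mutants, against 11.5 and 10.8 in 17-week WT and 16.4 and 15.6 in 12-week WT. The 12-week groups were alike, the 17-week mutants were the highest and the 17-week WT the lowest, so that the difference of 0.97 (adjusted p = 0.0399) held a mutant change of 0.48 and a WT change of -0.49 that did not pass alone. Nrp1 had 0.37 and -0.37 in the same order. Hsp25-ps1, also called in the difference, is annotated as a processed pseudogene and was at 104 and 81.9 in 17-week mutants and 22.5 and 31.1 in 12-week mutants, against 8.16 and 6.03 in 17-week WT and 9.61 and 10.1 in 12-week WT. By its name it is a copy of the heat shock gene Hspb1, itself at 14 and 17.6 in 17-week mutants and 6.41 and 5.96 in 12-week mutants, and the reads of such copies cannot be assigned with certainty. Gm9817 overlaps Hsp25-ps1 on the other strand of chromosome 13, so its reads carry the same uncertainty. It was at 71.3 and 37.6 in 17-week mutants and 4.71 and 6.94 in 12-week mutants. Its difference of 3.18 was the largest of those called. None of the 7 calls held when any 1 of the 4 WT libraries was left out.

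Stress and matrix genes gave smaller numbers of late or growing members. Hmox1, the inducible heme oxygenase, grew (15.4 and 13 in 17-week mutants and 4.35 and 4.98 in 12-week mutants, against 2.11 and 1.71 in 17-week WT and 2.04 and 1.55 in 12-week WT, a difference of 1.36), while 3 of 22 NRF2 targets rose in all. Of 22 matrix genes 8 rose (median 0.45), among them the protease inhibitor Timp1 (1.29) and tenascin C (Tnc, 0.80), a count that was 1 without the 12-week mutant female, 1 without the 17-week mutant female and 5 without the 17-week mutant male. Of 19 unfolded protein response genes 3 rose and 1 fell. Among them the chaperone Calr was below WT at 12 weeks (-0.35) and then rose by 0.44, at 104 and 97 in 17-week mutants and 77.3 and 70.0 in 12-week mutants, against 88.2 and 81.5 in 17-week WT and 98 and 89.9 in 12-week WT. Of 19 genes of the neuronal injury response 5 rose, including the factor Atf3 (5.9 and 7.27 in 17-week mutants and 2.89 and 2.87 in 12-week mutants) and Ddit3, Gadd45a, Crh and Rhoc, a count that was 0 without the 12-week mutant female, 0 without the 17-week mutant female and 1 without the 17-week mutant male. Without the 12-week mutant female 2 NRF2 targets and 0 unfolded protein response genes passed. Of 18 respiratory chain genes 1 rose. Limma called 0 of 16 autophagy genes, with 2 higher and 3 lower at an unadjusted p under 0.05, and limma-voom called 0.

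Among the lists, falls were found mostly in those for neurons, axons and cholesterol synthesis, whose medians were negative in WT as well. Of 21 motor neuron genes 5 fell and 0 rose: Chodl, Chat, Mmp9, Sv2b and Prph, with medians of -0.34 in mutant, -0.25 in WT and -0.11 for the difference. Chodl (chr16:78931193-78951979 in mm9), a surface protein of fast motor neurons, was at 2.06 and 1.41 in 17-week mutants and 6.65 and 7.23 in 12-week mutants, against 7.63 and 8.68 in 17-week WT and 14.3 and 10.7 in 12-week WT. The 17-week mutants were the lowest, and the 12-week mutants were just below the 17-week WT. The mutant change was -1.55 (SE 0.17, limma adjusted p = 0.00191) and the difference -1.002 (95% interval -1.54 to -0.46, adjusted p = 0.151). Mmp9, a protease of the same fast motor neurons, was at 0.796 and 1.08 in 17-week mutants and 2.22 and 2.08 in 12-week mutants, and Chat, which makes acetylcholine, at 3.93 and 5.33 in 17-week mutants and 7 and 7.61 in 12-week mutants, against 6.53 and 6.75 in 17-week WT and 9.96 and 8.66 in 12-week WT. The summed level of the 21 genes tested was 184.1 and 182.9 in 17-week mutants and 280.1 and 255.4 in 12-week mutants, against 237.9 and 241.1 in 17-week WT and 320.9 and 270.9 in 12-week WT. The 5 falls were 2 without the 12-week mutant female, 2 without the 12-week mutant male, 1 of 22 without the 17-week mutant female, 2 without the 17-week mutant male and 14 of 22 without rescaling.

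Of 18 neurofilament and axon genes 2 fell, Nefl and Stmn2. Nefl, the light neurofilament chain, was at 349 and 341 in 17-week mutants and 554 and 582 in 12-week mutants, against 569 and 533 in 17-week WT and 836 and 664 in 12-week WT, so that the 12-week mutants were at the level of the 17-week WT. The mutant change was -0.72 (limma adjusted p = 0.0109) and the difference -0.28 (95% interval -0.67 to 0.11). Of 22 ion channel genes 4 fell, led by the sodium channel subunit Scn4b (-0.64), of 20 synapse genes 2, with Snap25, which fuses vesicles with the membrane, among them (-0.48), and of 22 myelin genes 3 fell and 1 rose, with Mobp, a structural myelin protein, at 141 and 129 in 17-week mutants and 236 and 234 in 12-week mutants, against 146 and 174 in 17-week WT and 221 and 199 in 12-week WT. Without the 17-week mutant female 0 ion channel, 0 synapse and 1 myelin gene passed, and without the 12-week mutant female 0, 0 and 1. Without the 17-week mutant female or male 0 of 18 axon genes passed, without either 12-week mutant 1 did, and without rescaling 13 fell, with 12 of 22 myelin genes.

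Of 21 cholesterol synthesis genes 4 fell, among them Sqle, with medians of -0.37 in mutant and -0.29 in WT and a median difference of -0.05. Sqle, which oxidises squalene, was at 11.2 and 10.3 in 17-week mutants and 15.3 and 18.2 in 12-week mutants, against 16.6 and 16.7 in 17-week WT and 22.6 and 19.4 in 12-week WT. The 17-week mutants were the lowest, the 12-week WT the highest, and the 12-week mutants overlapped the 17-week WT. The mutant change was -0.59 (limma adjusted p = 0.0192), the WT change -0.31 and the difference -0.28 (95% interval -0.65 to 0.09). In the course by age the mutant levels were 34.9 and 38.7 at 4 weeks and 22.3 and 21.9 at 8 weeks. The count was 1 without the 12-week mutant female, 1 without the 12-week mutant male, 2 without the 17-week mutant female, 1 without the 17-week mutant male, 6 with upper-quartile factors and 16 without rescaling.

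Of the 42 genes below WT at 12 weeks 18 were still called at 17 weeks, 32 held and 10 could not be placed. The difference was positive in 35, against 7629 of all 14660 genes. The same 12-week mutant libraries enter both the choice of the 42 and the difference, so a chance low value at 12 weeks works toward a positive difference. The largest falls in mutant cord by the naming rule, other than Chodl and Ifi27l2b, were CT571247.1, Acp1, Pantr1, Ap4s1, Zfas1, Ubl5, Ost4, Ndufb2, Sc5d and Morf4l1. Acp1, a small phosphatase, was at 0.828 and 1.01 in 17-week mutants and 4.27 and 8.53 in 12-week mutants, against 4.83 and 9.48 in 17-week WT and 9.17 and 4.52 in 12-week WT. The 17-week mutants were below these others (change -1.89, limma adjusted p = 0.0121). That call ended without the 12-week mutant male, the 17-week mutant female or the 17-week mutant male. In the course by age Acp1 was nearly as low in 4-week mutants, at 1.13 and 1.33. It was at 8.70 and 9.42 in 8-week mutants and 5.08 and 8.67 in 4-week WT.

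The 6 largest rises by the naming rule were U4.9, U4.12, Rmrp, AC123039.1, mmu-mir-2135-4.1 and Scarna10, several of them small structural RNAs, ahead of Fcrls. Vaultrc5, AC133958.1, Pttg1 and AC123686.2 stood further down the 15, beside Lyz2, Cd52, Ccn5 and Cst7. Rmrp, the RNA of a ribonuclease that processes ribosomal RNA, was at 64.8 and 37.3 in 17-week mutants and 5.71 and 1.5 in 12-week mutants, against 88.4 and 15 in 17-week WT and 2.6 and 2.91 in 12-week WT, so that the 17-week libraries of both genotypes were high, the females above the males. Its change was 3.62 in mutant (SE 0.68, limma adjusted p = 0.0158) and 3.33 in WT, and the adjusted p in mutant cord was above 0.05 without any 1 of the 4 mutant libraries (0.0592 to 0.116). Across 91 genes of small RNA types the median change was 0.56 in mutant and 0.59 in WT, with 16 called in mutant cord. Pttg1, or securin, was at 9.78 and 5.48 in 17-week mutants and 0.82 and 0.986 in 12-week mutants and at 7.77 and 5.01 in 17-week WT and 0.517 and 0.683 in 12-week WT, a like change of 2.14 in mutant and 2.18 in WT. Pttg1 was also at 5.43 and 6.14 in 8-week mutants and 5.66 and 5.91 in 8-week WT, so that the 12-week libraries were its low ones. Rmrp was at 1.49 and 2.54 in 8-week mutants and 4.01 and 2.17 in 8-week WT, so that its 17-week libraries stood above the younger ones. The part of the lower share of reads on genes at 17 weeks in the small RNA values was not tested.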

How the data were processed

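Cord RNA libraries of SOD1_G93A mutant and WT mice were analysed from the deposited table of gene values. Bowtie and mm9 are named in the submitters' processing notes. The deposited values are a score: reads per gene length and library total, less a whole number of reads for part of the genes, as negative entries in the file show. The sources used here do not say what those reads were. The total of each library was estimated from the values themselves. Times length and that total, 100% of values above 0 gave whole reads in all 16 libraries (tolerance 0.05). Read numbers and shares on genes rest on these estimates and on values after the subtraction. Because of that subtraction a count test was not the main test.

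Negative values were set to 0, values were rescaled by median-of-ratios factors, and 14660 of 36814 genes were kept, those reaching 1 in 2 or more libraries. Limma 3.58.1 in R 4.3.3 (trend, Benjamini-Hochberg adjustment, threshold 0.05) was fitted to log2(value + 1) with a mean for each genotype and age and a term for sex, and was tested on simulated data. The contrasts were 17 minus 12 weeks in mutant and in WT, their difference, and mutant minus WT at each age. Genes were named by rule, among called genes with both later libraries on one side and a mean of at least 1, leaving out model, pseudogene and ribosomal symbols, as the 15 largest rises and 12 largest falls in mutant cord, the 8 largest differences, and the 10 genes with the largest effect at 12 weeks that held, and otherwise as members of 42 lists (601 of 735 genes tested). Members and lists were chosen with earlier results of these data known. Motifs were searched in RefSeq promoters (GRCm38.p6). Intervals are 95%. Some members of the lists are counted but not reported by name here.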

Additional observations from a re-analysis of the deposited data

Results flagged for a closer look

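The 8 genes flagged here had the largest positive differences between the mutant and the WT change under the naming rule. That rule leaves out model and pseudogene symbols. Passing the test of that difference (limma, Benjamini-Hochberg adjusted p under 0.05) was a condition of the choice. So was having both 17-week mutants above both 12-week mutants. The difference was 2.34 for Ccn5 (adjusted p = 0.0424), 1.99 for Cst7 (0.0335), 1.83 for Ccn1 (0.029) and 1.82 for Tgm1 (0.0383). It was 1.58 for Serpina3n (0.0215), 1.44 for Serpinf2 (0.0215), 1.40 for Cebpd (0.037) and 1.38 for C1qa (0.0474). Ccn1, a matricellular protein like Ccn5, was at 17.7 and 28.8 in 17-week mutants and 4.17 and 6.3 in 12-week mutants, against 1.54 and 1.54 in 17-week WT and 1.49 and 1.22 in 12-week WT. Serpinf2, the inhibitor of plasmin, was at 3.16 and 3.14 in 17-week mutants and 0.403 and 0.632 in 12-week mutants, and below 0.1 in all 4 WT libraries. None of the 8 calls held when any 1 of the 4 WT libraries of 12 and 17 weeks was left out.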

How the results depend on the processing

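Counts of genes called moved with the scaling, the libraries fitted and single libraries. With values as deposited the calls were 4174 in mutant cord, 12 in WT, 2 in the difference and 256 at 12 weeks, with 1 gene that grew and 112 that held, and the lower share of reads on genes at 17 weeks enters these values directly. With a pseudocount of 0.1 they were 504 in mutant cord and 5 in the difference, and 4 grew. Without the filter on low values 2 were called in WT and 56 in the difference, and 1 gene receded. With the 8 libraries of 12 and 17 weeks alone they were 124 in mutant cord, 1 in WT, 0 in the difference and 141 at 12 weeks, with 0 that grew and 45 that held, from fewer samples. Without both 17-week females, an alternative chosen after seeing the data, they were 176 in mutant cord, 3 in WT and 0 in the difference, and 0 grew. With each library left out in turn the calls ranged from 116 to 1053 in mutant cord, from 0 to 123 in WT, from 0 to 156 in the difference and from 135 to 647 at 12 weeks, while 0 to 30 grew, 50 to 272 held and 0 to 7 receded. A library left alone in its group is taken to vary like the other groups. Upper-quartile factors and limma-voom on recovered reads stayed within 1.5 times for these counts. None of the 45 results for genes named by rule changed sign under the alternatives run. The median difference of the interferon list did, at -0.06 with all libraries, 0.30 without the 17-week mutant male and 0.02 without the 12-week mutant male. Of 45 gene results 28 lost their call without the 12-week mutant female and 9 without either 17-week WT library. The cause was not tested. Read depth of the 17-week mutant female limits what its low genes can show.

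The replicate number is the sex of the library. Female minus male deviations correlated at -0.07 to 0.21 between groups (7709 genes), over 0.1 in 2 of 6 pairs, so the numbers do not pair the samples. Without the replicate block (no sex term) 57 genes were called in the difference and 37 grew, and Zfas1 alone of the 45 lost its call.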
